A study of Mus musculus with 6 samples.

Results

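Irg1, the gene of the enzyme that makes itaconate, was examined together with 8 genes of tricarboxylic acid (TCA) cycle enzymes: Cs, Idh1, Idh2, Idh3a, Ogdh, Sdha, Fh1 and Mdh2. These 9 genes, of 24454 gene symbols in the count table, were chosen by name, though with earlier results of these data known. All 9 were present in the table, and 7 passed the filter on low counts and were tested. RNA came from cultured peritoneal macrophages, the resident phagocytes of the abdominal cavity, taken from wild-type C57BL6/J male mice of 6 to 8 weeks. The 3 groups had 2 libraries each: vehicle for 5 h, the bacterial endotoxin LPS at 10 ng/ml for 4 h, and the aryl hydrocarbon receptor (AHR) ligand SGA360 at 10 µM for 1 h followed by the same LPS treatment. The labels name no vehicle pretreatment for the LPS group. Nothing in them tells whether both libraries of a group are separate animals or cultures, and p-values here reflect only how these samples spread, possibly for technical reasons.

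As background, the TCA cycle oxidises acetyl groups in the mitochondrion by way of citrate, isocitrate, 2-oxoglutarate, succinate, fumarate and malate. IRG1 protein, now called ACOD1, removes a carboxyl group from cis-aconitate, the intermediate between citrate and isocitrate, and so draws itaconate out of the cycle. Itaconate is a competitive inhibitor of succinate dehydrogenase, and LPS-activated macrophages are known for accumulating itaconate and succinate.

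Total counts were between 7726973 and 9529817 per library. Vehicle replicate 1 stood apart: it detected 10001 symbols where the others detected 12282 to 12643, and Rn45s, the ribosomal RNA precursor, made up 4.92% of its counts instead of 0.22% to 0.684%. Of 12 macrophage markers, 11 passed the filter, with summed levels of 21260 to 26300 CPM, which are counts scaled to a common library size, and Itgam was listed at 0. With LPS, 3 of the 11 were called higher and 5 lower in edgeR, beside 19.4% of all genes tested higher and 17.0% lower. Summed markers of neutrophils were at 26.4 to 33.0 CPM, of B cells at 33.4 to 37.9 CPM and of T and NK cells at 2.84 to 9.16 CPM.

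The promoters of Irg1 and Sdha are shown because they belong to the inducible gene and to an enzyme that itaconate inhibits, and differ in base composition. Each run is the 250 bases before the RefSeq start on the gene's own strand, from build GRCm38.p6. For Irg1 (chr14:103046762-103047011, plus strand) the capitals mark TATAAA, the letters of a TATA box. For Sdha (chr13:74350241-74350490, minus strand) they mark GCGCA, any base and GCGC, letters of the type bound by nuclear respiratory factor 1 (NRF1).
Irg1: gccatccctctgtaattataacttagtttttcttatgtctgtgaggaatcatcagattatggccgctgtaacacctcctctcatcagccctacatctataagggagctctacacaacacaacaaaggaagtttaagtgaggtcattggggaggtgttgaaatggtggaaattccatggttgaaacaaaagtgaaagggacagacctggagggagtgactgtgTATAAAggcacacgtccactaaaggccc
Sdha: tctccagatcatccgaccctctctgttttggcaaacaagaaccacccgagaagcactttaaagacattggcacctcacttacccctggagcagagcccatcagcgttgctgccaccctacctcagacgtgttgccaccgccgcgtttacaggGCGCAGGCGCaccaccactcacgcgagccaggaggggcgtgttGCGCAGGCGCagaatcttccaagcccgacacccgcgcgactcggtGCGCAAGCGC

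Entries were matched for 8 of the 9 genes, in windows from 250 bases before to 50 bases after the start. The Irg1 window held 2 CpG dinucleotides and was 47.0% G and C, whereas the windows of Cs, Idh2, Sdha, Fh1 and Mdh2 held 14 to 27 CpG and were 54.3% to 68.3% G and C. Both Idh1 windows held 23 CpG, and the 6 Ogdh windows held 11 to 37 CpG, with 49.3% G and C in the lowest of them, near the share in Irg1. All promoter windows had a median of 7 CpG (interquartile range 3 to 20) and of 52.7% G and C. A search of both strands found TATAAA in Irg1 at -28 from the start and in no window of the other 7 matched genes. The letters occurred in 13.62% of all 32851 windows. The NRF1-type letters were found in Sdha alone among the matched genes, at -98, -55 and -10, and in 4.6% of all windows. The AHR core GCGTG was found in Sdha, Idh2, Fh1, Mdh2, Idh1 and Ogdh but not in the windows of Irg1 or Cs, and in 32.39% of all windows. The NF-kB type (GGGA, any base and TTTCC) and the interferon-response type (GAAA, any 2 bases and GAAA) were in none of the matched genes and in 0.41% and 3.44% of all windows. In Sdha the matches of different motifs did not overlap, and a match is only a description of these letters.

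In build mm10, Irg1 (NM_008392) lies on chromosome 14 from 103047012 to 103056573 on the plus strand. Its transcript is protein coding, and the GENCODE annotation places no other gene over it. Cs lies on chromosome 10 from 128337832 to 128362479, Idh3a on chromosome 9 from 54586511 to 54604662 and Mdh2 on chromosome 5 from 135778649 to 135790386, with Ogdh on chromosome 11 from 6291597 to 6359094, all on the plus strand. On the minus strand, Idh2 lies on chromosome 7 from 80094847 to 80115350, Sdha on chromosome 13 from 74322255 to 74350240, Idh1 on chromosome 1 from 65158616 to 65186479 and Fh1 on chromosome 1 from 175601378 to 175625635. Fh1 overlaps Kmo on the opposite strand over 5255 bases, but Kmo had only 0 to 11 counts per library. Cs spans the small nucleolar RNA Gm23182, Idh2 overlaps Gm45203, and Sdha spans the pseudogene Gm16125 on the opposite strand. No source used here states whether reads were counted by strand, so reads of opposite genes cannot be told apart.

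LPS raised Irg1 from a low level to one of the highest of all symbols. Read counts were 94 and 97 in the vehicle libraries, 33698 and 43676 with LPS, and 31654 and 37230 with SGA360 and LPS. In CPM on library sizes scaled by the trimmed mean of M values (TMM), these were 10.5 and 10.1 in vehicle, 4482 and 4775 with LPS, and 4019 and 4171 with SGA360 and LPS. Both stimulated groups lay far above vehicle, without overlap, and Irg1 alone took 0.436% and 0.458% of all counts in the LPS libraries. Its rank by CPM moved from 6620 of 10001 and 6684 of 12563 detected symbols in vehicle to 13 in both LPS libraries.

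The rise with LPS was 449-fold, a log2 fold change of 8.81 (SE 0.09, 95% interval 8.61 to 9.01, adjusted p = 4.28e-12 by edgeR's quasi-likelihood test), the fifth-highest of 9389 genes tested. LPS changed 36.4% of the genes tested: 1820 genes (19.4%) were higher and 1593 (17.0%) lower. Against the same vehicle libraries, SGA360 and LPS gave a 397-fold rise (log2 8.63, SE 0.09, adjusted p = 4.96e-12). In that comparison 33.1% of genes were called, 17.9% higher and 15.2% lower. In bulk RNA, a change in the number of expressing cells and a change in RNA per cell cannot be told apart.

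With SGA360, both Irg1 libraries lay below both LPS libraries, by a log2 difference of -0.18 (SE 0.06, 95% interval -0.31 to -0.04). The mean levels were 4095 ± 107 CPM with SGA360 and LPS and 4629 ± 207 CPM with LPS (SD, n = 2). This difference of -11.5% did not pass the threshold: the edgeR adjusted p was 1, and it lay between 0.324 and 1 over the 17 alternative settings. The unadjusted p of the edgeR fit was 0.0143. Only 7 genes, 0.0746% of those tested, were called in this comparison, and all were lower with SGA360. The 95% interval of the Irg1 difference spans -19.3% to -2.99%.

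**Figure D1:**
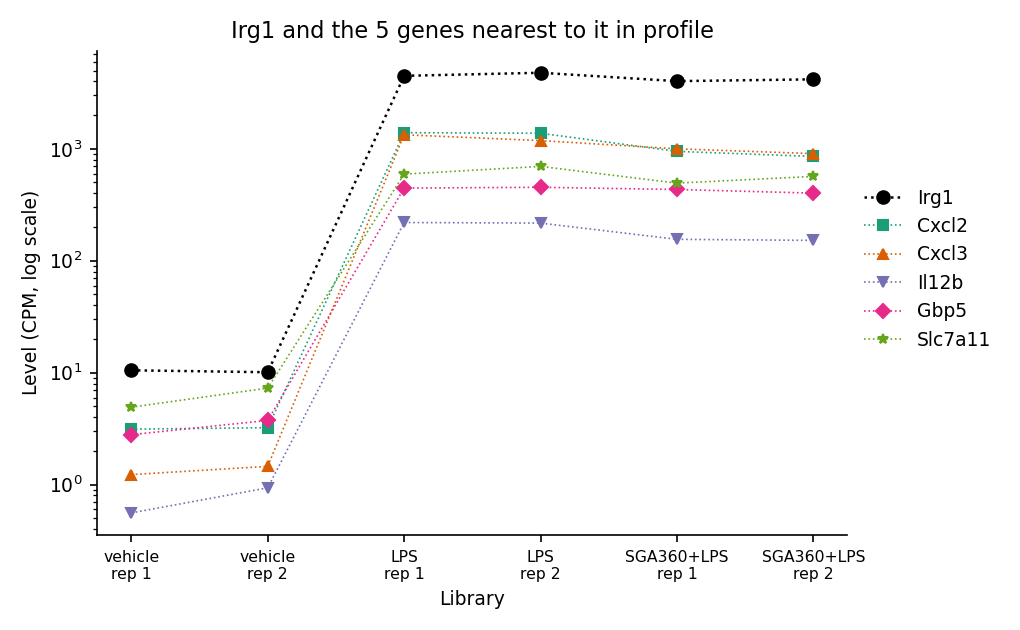
Level of Irg1 and of the 5 genes with the most similar profile in each of the 6 libraries, in CPM on a log axis, with 1 point per library and dotted lines only to link the points of a gene. Irg1 goes from 10.1 to 10.5 CPM in vehicle to between 4019 and 4775 CPM in the 4 LPS-treated libraries.

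The genes whose centred log2 CPM profiles over the 6 libraries lay nearest to that of Irg1, among 7357 candidates, were Cxcl2, Cxcl3, Il12b, Gbp5 and Slc7a11. Cxcl2 and Cxcl3 encode neutrophil-attracting chemokines, Il12b a subunit of interleukin 12 and 23, Gbp5 a guanylate-binding protein and Slc7a11 the cystine-glutamate antiporter. The Euclidean distance from Irg1 was 0.62 for Cxcl2, 0.95 for Cxcl3, 1.402 for Il12b, 2.02 for Gbp5 and 2.52 for Slc7a11, in log2 units. Cxcl2 was at 3.13 and 3.23 CPM in vehicle, 1392 and 1376 CPM with LPS, and 947.8 and 854 CPM with SGA360 and LPS. Of these 5 genes only Cxcl2 was called lower with SGA360, by -0.62 (SE 0.07, edgeR adjusted p = 0.00961). That call was lost without LPS replicate 1 (adjusted p = 0.12) or replicate 2 (0.158) and without SGA360+LPS replicate 1 (0.0923) or replicate 2 (0.264), and adjusted p-values ran from 1.4e-14 to 1 over all alternatives. The difference with SGA360 was -0.40 (SE 0.08) for Cxcl3 and -0.51 (SE 0.08) for Il12b, neither past the threshold, although both were called with only the compared groups (adjusted p = 0.0474 and 0.00154) and both ran from 0.000135 to 1 over all alternatives. For Slc7a11 it was -0.28 (SE 0.11) and for Gbp5 -0.11 (SE 0.07), also not past it. Whether Irg1 differs from Cxcl2 in this respect was not tested.

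The TCA cycle enzymes moved by far less. With LPS, 1 of the 6 tested enzymes rose and 2 fell, beside 19.4% of all genes higher and 17.0% lower. The higher count is near that background and the lower count exceeds it by about 1 gene, so neither is a result about the cycle as a whole. Without vehicle replicate 1, Cs and Mdh2 were called higher and Idh2 lower. The estimated change was under 2-fold for each of the 6.

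Cs, citrate synthase, which joins acetyl-CoA to oxaloacetate, was the enzyme that rose. It was at 397 and 366 CPM in vehicle, 469 and 479 CPM with LPS, and 443 and 463 CPM with SGA360 and LPS. All 4 stimulated libraries lay above both vehicle libraries. The log2 fold change with LPS was 0.31 (SE 0.07, edgeR adjusted p = 0.00452). With SGA360 and LPS against the same vehicle libraries it was 0.25 (SE 0.07, adjusted p = 0.0166), and that call was lost without SGA360+LPS replicate 2 (0.23, adjusted p = 0.119).

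Idh2, the mitochondrial NADP-dependent isocitrate dehydrogenase, fell. It was at 176 and 185 CPM in vehicle, 124 and 115 CPM with LPS, and 130 and 126 CPM with SGA360 and LPS. The groups with LPS did not overlap with vehicle. Its log2 fold change with LPS was -0.60 (SE 0.08, edgeR adjusted p = 0.000197), and with SGA360 and LPS -0.49 (SE 0.08, adjusted p = 0.00078). Idh2 kept its LPS call when each of the 6 libraries was left out in turn, as did Cs.

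Idh3a, the catalytic subunit of the NAD-dependent isocitrate dehydrogenase of the cycle, had a wide spread in vehicle. It was at 54.0 and 75.9 CPM in vehicle, 86.3 and 77.3 CPM with LPS, and 66.03 and 80.2 CPM with SGA360 and LPS. Its lowest value was in vehicle replicate 1, the library that stood apart. The log2 difference with LPS was 0.33 (SE 0.16, 95% interval -0.02 to 0.68, edgeR adjusted p = 0.134). It was 0.12 without vehicle replicate 1 and 0.61 without vehicle replicate 2, where it passed the threshold (adjusted p = 0.000555). Over all alternatives the adjusted p ran from 0.000555 to 1.

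The symbols Idh1 and Ogdh could not be followed. Idh1, the cytosolic NADP-dependent isocitrate dehydrogenase, has 2 transcript rows in the table and held 0 and 1 counts in vehicle, 1 and 2 with LPS, and 4 and 1 with SGA360 and LPS. Ogdh, the first component of the 2-oxoglutarate dehydrogenase complex, has 5 rows and was listed at 0 in every library. Symbols with several rows held few counts throughout: of 5639 such symbols 51.0% had no count in any library, compared with 37.1% among 18815 symbols of a single row. These zeros are therefore not read as absence of the transcripts. No level or fold is given for either gene.

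Sdha, the flavoprotein subunit of succinate dehydrogenase, was lower with LPS. It was at 377 and 344 CPM in vehicle, 290 and 312 CPM with LPS, and 294 and 308 CPM with SGA360 and LPS. The vehicle libraries were the highest of the 6. The log2 fold change with LPS was -0.26 (SE 0.07, edgeR adjusted p = 0.0202). This call is fragile: it was lost when any library but vehicle replicate 2 was left out, with -0.17 and adjusted p = 0.0834 without vehicle replicate 1, and -0.19 and adjusted p = 0.222 without LPS replicate 1. Without LPS replicate 2 the adjusted p was 0.0595, and without SGA360+LPS replicate 1 or replicate 2 it was 0.0611 and 0.06. The adjusted p ran from 0.00303 to 1 over all alternatives.

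Fh1, fumarate hydratase, was at 83.9 and 83.9 CPM in vehicle, 72.1 and 71.2 CPM with LPS, and 76.1 and 73.6 CPM with SGA360 and LPS. Its log2 difference with LPS was -0.23 (SE 0.09, 95% interval -0.42 to -0.03, edgeR adjusted p = 0.0655), so it did not pass the threshold although the groups did not overlap. Mdh2, the mitochondrial malate dehydrogenase that closes the cycle, was at 410 and 373 CPM in vehicle, 420 and 423 CPM with LPS, and 456 and 438 CPM with SGA360 and LPS. Its log2 difference with LPS was 0.11 (SE 0.07, 95% interval -0.05 to 0.26, adjusted p = 0.26). Vehicle replicate 1 was the higher of the vehicle pair, and without it the difference was 0.19 (adjusted p = 0.0438). The adjusted p of Mdh2 ran from 0.0438 to 1 over all alternatives.

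**Figure D2:**
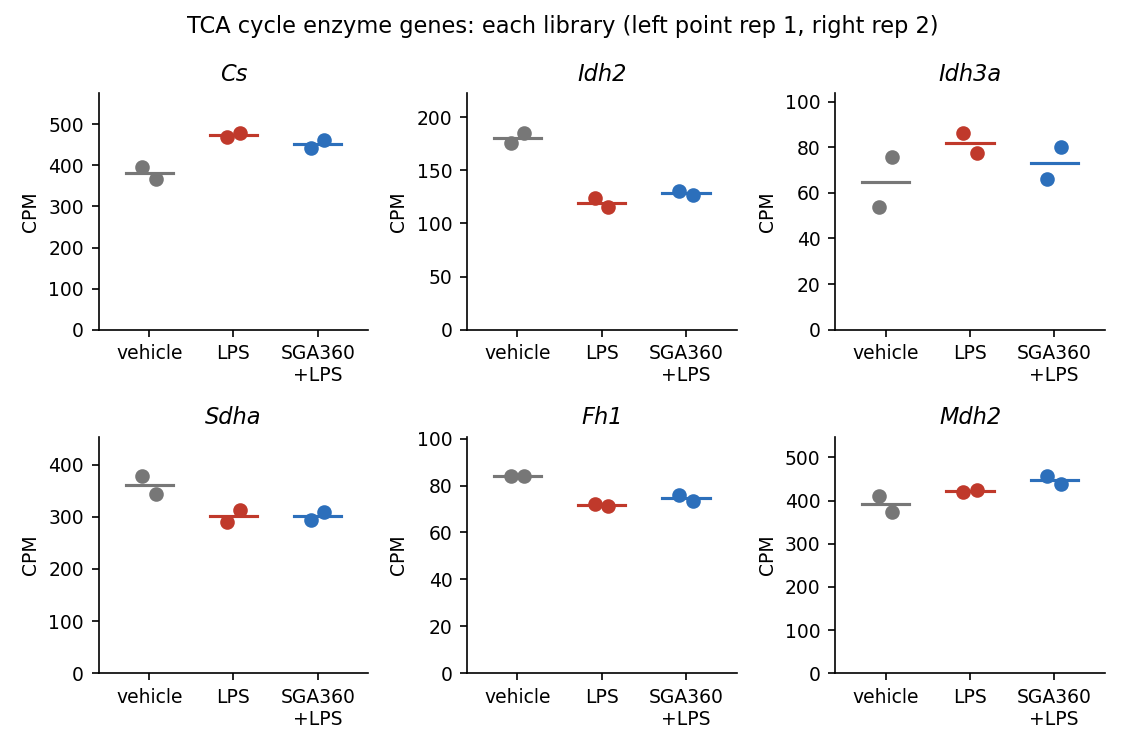
Levels of the 6 tested TCA cycle enzymes in CPM, with 1 panel per gene, 1 point per library and a bar at the group mean. The Cs points rise from 366 and 397 CPM in vehicle to 469 and 479 CPM with LPS, and the Idh2 points fall from 176 and 185 CPM to 115 and 124 CPM.

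No difference beyond LPS alone was called with SGA360 for the 6 tested TCA cycle enzymes. In edgeR, none of the 7 tested genes was called in SGA360+LPS against LPS, 1 had an unadjusted p under 0.05 (Irg1), and DESeq2 and limma-voom each called 0 of them. The 95% intervals of the log2 difference were -0.21 to 0.08 for Cs, -0.07 to 0.28 for Idh2 and -0.51 to 0.19 for Idh3a. They were -0.17 to 0.17 for Sdha, -0.13 to 0.26 for Fh1 and -0.07 to 0.24 for Mdh2. These intervals are not adjusted for the number of genes tested, and they use the fit of all 6 libraries. The common spread between replicates was larger in that fit than in these 2 groups fitted alone. With only the compared groups, none of the 7 genes was called either. The intervals do not give the smallest change that could be called with 2 libraries a group. In the same comparison, -0.51 for Il12b and -0.40 for Cxcl3 did not pass the threshold, while -0.62 for Cxcl2 did.

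**Figure D3:**
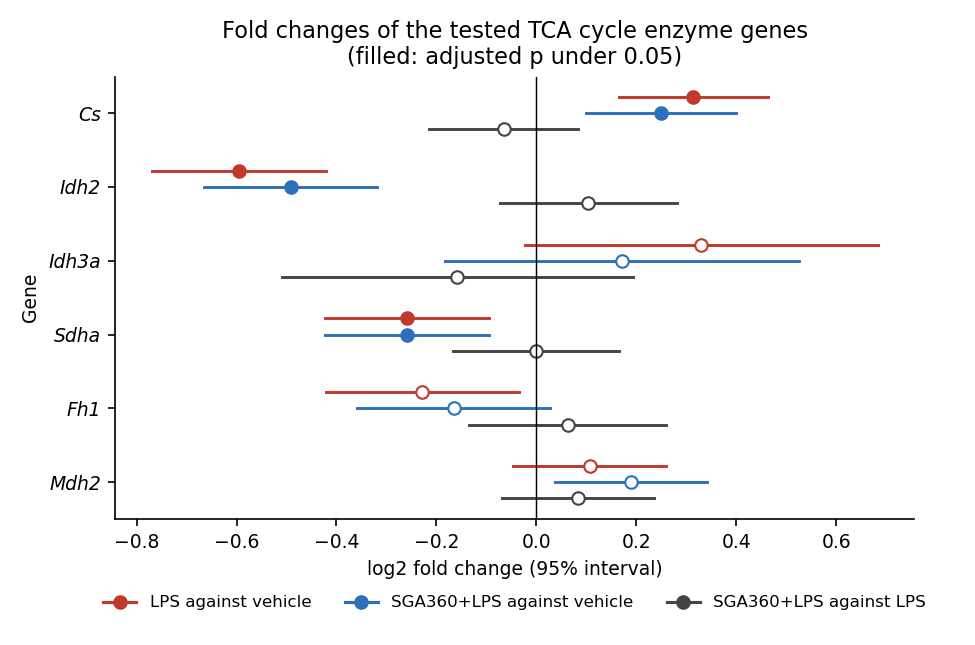
Log2 fold change of the 6 tested TCA cycle enzymes in the 3 comparisons, with 95% intervals, filled points for adjusted p under 0.05 and open points otherwise. All points for SGA360+LPS against LPS are open and their intervals include 0.

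Levels of different genes were compared per kilobase of exon length. In vehicle, Mdh2 was highest at 303.5 ± 20.2 CPM per kb (SD, n = 2), followed by Cs at 134.4 ± 7.84 and Sdha at 125.4 ± 8.23, whose libraries overlapped. Idh2 followed at 105.4 ± 3.77 CPM per kb, Fh1 at 51.1 ± 0.0211 and Idh3a at 26.9 ± 6.41, and Irg1 was lowest at 3.97 ± 0.112. With LPS, Irg1 stood first at 1785 ± 79.8 CPM per kb, above Mdh2 at 326.7 ± 1.77, and the order of the enzymes was otherwise the same, with no overlap between neighbours. With SGA360 and LPS, Irg1 was at 1579 ± 41.3 CPM per kb and Mdh2 at 346.2 ± 9.96.

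The ratio of Irg1 to Cs per kilobase, the itaconate enzyme against the enzyme that makes citrate, was 0.029 and 0.0302 in the vehicle libraries. It was 10.5 and 10.9 with LPS, and 9.92 and 9.86 with SGA360 and LPS. The ratio of Cs to Idh2 was 1.36 and 1.19 in vehicle, 2.29 and 2.51 with LPS, and 2.05 and 2.21 with SGA360 and LPS. Both ratios were higher in every LPS-treated library than in either vehicle library, which restates the changes of these genes given above. In both, the SGA360 libraries lay below the LPS libraries, a difference that was not tested. The ratio of Irg1 to Mdh2 was 5.31 and 5.61 with LPS, and 4.39 and 4.74 with SGA360 and LPS. That of Irg1 to Idh3a overlapped, at 48.4 and 57.5 with LPS, and 56.7 and 48.4 with SGA360 and LPS. These are ratios of transcripts, and neither protein nor flux was measured.

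**Figure D4:**
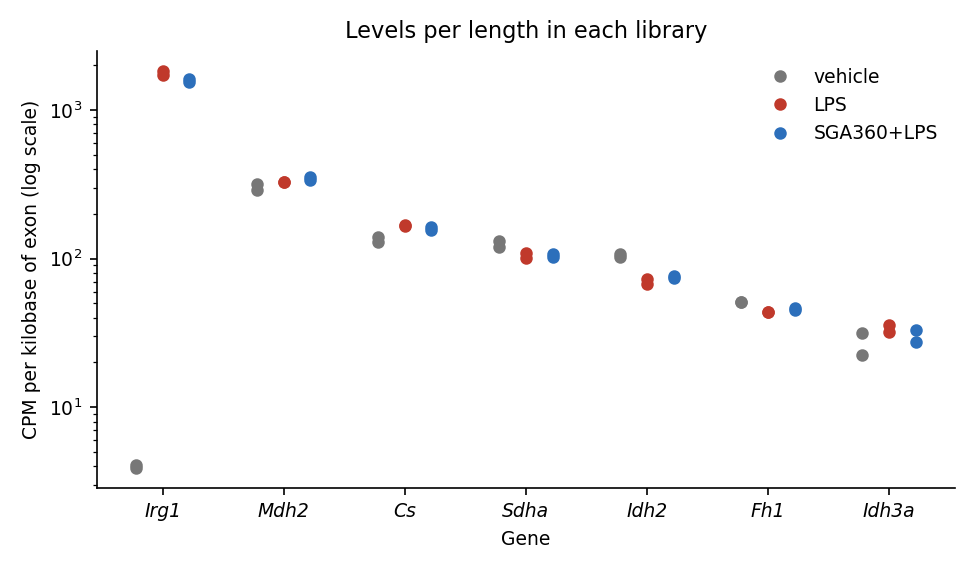
Level of the 7 tested genes per kilobase of exon in each library, in CPM per kb on a log axis, with 1 point per library. Irg1 moves from the lowest position in vehicle, near 3.97 CPM per kb, to the highest with LPS, near 1785.

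Of 17 other subunits and isoenzymes of the cycle, 15 were tested, of which 2 rose and 3 fell with LPS (3 and 3 without vehicle replicate 1). These counts are near the background of 19.4% of all genes higher and 17.0% lower, and the median log2 fold change was -0.12, beside -0.01 for all genes. Dld, the dihydrolipoamide dehydrogenase shared by the pyruvate and 2-oxoglutarate dehydrogenase complexes, rose by 0.63 (SE 0.07, edgeR adjusted p = 6.22e-05). It was at 126.8 and 124 CPM in vehicle, 196.5 and 193.1 with LPS, and 169.6 and 173.4 with SGA360 and LPS. Dlst, the succinyltransferase of the 2-oxoglutarate complex, rose by 0.44 (SE 0.08, adjusted p = 0.00197). Ogdh itself, the partner of both, was the gene listed at 0.

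The other succinate dehydrogenase subunits were also followed. Sdhc, a membrane anchor, was at 196.8 and 167.3 CPM in vehicle and 150.3 and 154.6 with LPS (log2 -0.26, SE 0.09, edgeR adjusted p = 0.0464). Sdhb, the iron-sulfur subunit, which was named after its values were seen, was at 150 and 154.4 CPM in vehicle and 132 and 123.9 with LPS (log2 -0.25, SE 0.08, adjusted p = 0.0263). Sdhd, the other anchor, was at 181.5 and 172.3 CPM in vehicle and 159 and 171.1 with LPS and was not called (adjusted p = 0.345). The Sdhc call was lost without any library but vehicle replicate 2, and it stood at -0.12 without vehicle replicate 1 (adjusted p = 0.256). The Sdhb call was lost without either LPS library (adjusted p = 0.104 and 0.272) or either SGA360+LPS library (0.092 and 0.0915). In DESeq2 neither Sdhc (adjusted p = 0.0975) nor Sdhb (0.093) was called, nor in edgeR with only the compared groups (0.102 and 0.0705). Sdhc was also not called in limma-voom (0.0539), and Sdhb not in edgeR with no filter (0.0657). Over all alternatives the adjusted p ran from 0.00139 to 1 for Sdhc and from 0.00646 to 1 for Sdhb.

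Of 13 genes of pyruvate entry, 10 were tested, of which 0 rose and 5 fell with LPS in edgeR, beside 19.4% of all genes higher and 17.0% lower, and the median was -0.23. At an unadjusted p under 0.05, 1 was higher and 5 lower. DESeq2 called 0 higher and 2 lower, limma-voom 0 and 4, and edgeR without vehicle replicate 1 called 1 and 3. The 5 were Pdk2, Pdk1, Pdk3, Pdp2 and Mpc2, whereas the tested pyruvate dehydrogenase subunits Pdha1, Pdhb, Dlat and Pdhx did not pass the threshold. Pdk2, a kinase that inhibits pyruvate dehydrogenase, was at 15.4 and 10.4 CPM in vehicle and 3.19 and 2.73 with LPS, which is -2.12 on the log2 scale (SE 0.32, adjusted p = 0.000519). Pdk1, another of these kinases, changed by -0.63 (SE 0.13, adjusted p = 0.00451), a call lost without LPS replicate 2 (-0.53, adjusted p = 0.0735). Pdp2, a phosphatase that activates the complex, changed by -0.58 (SE 0.20, adjusted p = 0.0473). This was lost in DESeq2, in limma-voom and without any library but vehicle replicate 2, and stood at -0.26 without vehicle replicate 1 (adjusted p = 0.221). Pdk3, a further kinase of this family, changed by -0.41 (SE 0.13, adjusted p = 0.0315), lost when any library but vehicle replicate 2 was left out (highest adjusted p = 0.276, without LPS replicate 2). Mpc2, a subunit of the mitochondrial pyruvate carrier, changed by -0.47 (SE 0.13, adjusted p = 0.0187), lost without LPS replicate 1 (adjusted p = 0.167) or LPS replicate 2 (adjusted p = 0.0744).

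Of 9 genes of citrate export and use, 5 were tested, with 1 higher, 1 lower and a median of 0.02, which is near the background of 19.4% and 17.0%. Slc13a3, a sodium-coupled dicarboxylate transporter that carries succinate and also itaconate, was at 0.559 and 1.04 CPM in vehicle, 12.4 and 13.9 with LPS, and 13.3 and 14.8 with SGA360 and LPS. Its log2 fold change with LPS was 4.00 (SE 0.33, edgeR adjusted p = 5.94e-06), from only 5 and 10 vehicle counts. Me2, the mitochondrial malic enzyme, fell by 0.43 on the log2 scale (SE 0.08, adjusted p = 0.00178). Slc25a1, the mitochondrial citrate carrier, named after its values were seen, was at 149.6 and 154 CPM in vehicle and 157.2 and 149.8 with LPS, with overlapping groups.

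Of 7 mitochondrial carriers and genes of the malate-aspartate shuttle, 5 were tested, with 1 higher, 2 lower (1 lower without vehicle replicate 1) and a median of -0.10, against a background of 19.4% higher and 17.0% lower. Slc25a10, the dicarboxylate carrier that exchanges malate and succinate, was at 51.3 and 67.2 CPM in vehicle, 104.4 and 104.8 with LPS, and 114.3 and 110.2 with SGA360 and LPS (log2 0.82, SE 0.12, edgeR adjusted p = 0.000427). Got1, the cytosolic aspartate aminotransferase, fell from 127.2 and 120.7 CPM to 83.7 and 82.5 with LPS (log2 -0.58, SE 0.08, adjusted p = 0.00036). Slc25a12, an aspartate-glutamate carrier, changed by -0.52 (SE 0.14, adjusted p = 0.0174), a call lost without vehicle replicate 1 (-0.29, adjusted p = 0.0577) or LPS replicate 1 (-0.39, adjusted p = 0.164).

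All 7 genes of glutamine and glutamate supply were tested, with 1 higher, 1 lower and a median of -0.16, no more than the shares of 19.4% and 17.0% over all genes. Glul, glutamine synthetase, was at 232.5 and 245.7 CPM in vehicle, 111.5 and 103 with LPS, and 106.7 and 105.9 with SGA360 and LPS (log2 -1.16, SE 0.08, edgeR adjusted p = 1.4e-06). Slc1a5, a glutamine transporter, rose by 0.34 (SE 0.07, adjusted p = 0.00503). Of 5 genes of the aspartate-argininosuccinate shunt, 3 were tested, with 1 higher (Slc7a2), 1 lower (Got1) and a median of -0.10, against the same shares over all genes. Slc7a2, an arginine transporter with 2 rows, held 1 count over both vehicle libraries and 54 over both LPS libraries, a ratio of 60.1 with a 95% counting interval of 10.3 to 2420.

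Of 6 genes of itaconate breakdown, 5 were tested, of which 0 rose and 3 fell with LPS in edgeR, beside 19.4% of all genes higher and 17.0% lower, and the median was -0.44. The same counts held at an unadjusted p under 0.05, in DESeq2, in limma-voom and without vehicle replicate 1. The pathway activates itaconate to its CoA ester by succinyl-CoA synthetase and then hydrates and cleaves it. Auh, a hydratase of this route and of leucine breakdown, was at 29.5 and 23.3 CPM in vehicle, 11.0 and 8.42 with LPS, and 11.1 and 9.41 with SGA360 and LPS (log2 -1.45, SE 0.21, edgeR adjusted p = 0.000373). Clybl, the citramalyl-CoA lyase, was at 21.5 and 13.8 CPM in vehicle and 8.25 and 6.45 with LPS (log2 -1.27, SE 0.26, adjusted p = 0.00388). The Clybl call was lost without LPS replicate 2 (adjusted p = 0.0539, range over all alternatives 5.97e-06 to 0.559). Suclg2, the GDP-forming subunit of the synthetase, fell by 0.44 on the log2 scale (SE 0.12, adjusted p = 0.0173), a call lost without LPS replicate 2 (-0.30, adjusted p = 0.222). The other 2 tested synthetase subunits, Suclg1 and Sucla2, did not pass the threshold.

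Of 10 genes of the response to succinate and itaconate, 7 were tested, of which 4 rose with LPS and 0 fell in edgeR, beside 19.4% of all genes higher and 17.0% lower, and the median was 0.94. DESeq2 and limma-voom also called 4 higher and 0 lower, and 0 were lower at an unadjusted p under 0.05. Egln3, an oxygen-sensing prolyl hydroxylase, rose by 1.39 on the log2 scale (SE 0.10, adjusted p = 1.86e-06). Hmox1, haem oxygenase and a target of NRF2, was at 656.5 and 651.2 CPM in vehicle, 1254 and 1261 with LPS, and 1357 and 1404 with SGA360 and LPS (log2 0.94, SE 0.06, adjusted p = 7.5e-07). Nfe2l2, the gene of NRF2, rose by 0.74 (SE 0.07, adjusted p = 1.09e-05) but has 2 rows, so its level is uncertain. The fourth was Il1b. In SGA360+LPS against LPS it was called lower (log2 -1.04, SE 0.14, adjusted p = 0.0393), the only call in that comparison among all pathway lists, from 1297 and 1225 CPM to 653.4 and 572.9. That call was lost without any 1 of the 4 LPS-treated libraries (adjusted p = 0.415 and 0.29 without an LPS library, 0.489 and 1 without an SGA360+LPS library). It was also lost under upper-quartile scaling (adjusted p = 0.0529) and in DESeq2 (adjusted p = 1), and the adjusted p ran from 6.74e-38 to 1 over all alternatives.

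Of 10 genes known to act upstream of Irg1 transcription, 6 were tested, with 5 higher and 1 lower, beside 19.4% of all genes higher and 17.0% lower, and a median of 1.13. Nfkb1, an NF-kB subunit, was at 129 and 164.5 CPM in vehicle, 919 and 945.3 with LPS, and 866.2 and 867.6 with SGA360 and LPS (log2 2.67, SE 0.10, edgeR adjusted p = 2.3e-08). Rela, another subunit, rose by 1.07 (SE 0.08, adjusted p = 2.55e-06) and Myd88, an adaptor of the LPS receptor, by 1.18 (SE 0.13, adjusted p = 4.78e-05). Ifnar2, a chain of the type I interferon receptor with 2 rows, rose by 1.30 (SE 0.10, adjusted p = 5e-06). The gene that fell was Tlr4, the LPS receptor itself, named after its values were seen (log2 -0.65, SE 0.15, adjusted p = 0.00825), a call lost without LPS replicate 1 (-0.38, adjusted p = 0.0706). The factors Irf1 and Irf8, each with several rows, had too few counts to be tested.

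**Figure D5:**
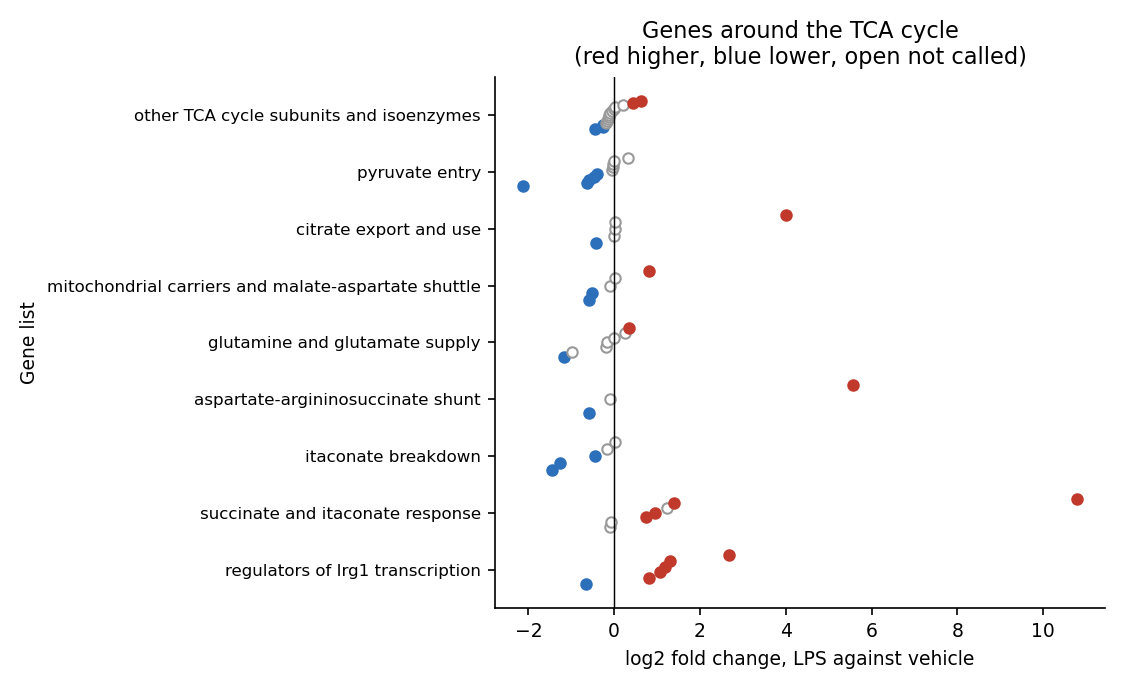
Log2 fold change with LPS against vehicle of each tested gene in the pathway lists, with 1 point per gene, red where called higher, blue where called lower and open where adjusted p was not under 0.05. The median of a list ranges from -0.44 for itaconate breakdown to 1.13 for the genes upstream of Irg1 transcription.

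Among markers of other cells, mesothelial and endothelial sums were lower with LPS than in vehicle. Fibroblast sums overlapped, and mast cell sums were higher. The summed level of 10 mesothelial markers was 545.8 and 516.5 CPM in vehicle, 371.4 and 370.5 with LPS, and 361.8 and 383 with SGA360 and LPS. Of 9 tested, 4 fell with LPS and 0 rose in edgeR, beside 17.0% of all genes lower and 19.4% higher. At an unadjusted p under 0.05, 6 were lower and 0 higher. DESeq2 called 3 lower and limma-voom 4, and Gpm6a was listed at 0 in all libraries. Summed fibroblast markers were at 4680 and 5379 CPM in vehicle, 4725 and 4418 with LPS, and 5208 and 4737 with SGA360 and LPS. Of 5 tested, 1 was called lower with LPS and 0 higher, beside the same shares over all genes. Endothelial markers summed to 66.04 and 82.6 CPM in vehicle, 46.7 and 57.6 with LPS, and 60.3 and 63.7 with SGA360 and LPS. With LPS 1 of 2 tested was called lower and 0 higher, beside the same shares over all genes, and 4 of 7 were at 0. The part of these cells in the lower levels of Idh2, Sdha, Glul, Auh and Clybl was not tested. Mast cell markers summed to 86.3 and 77.3 CPM in vehicle and to 101.1 and 101.2 with LPS. Of 6 tested, 2 were called higher and 0 lower in edgeR, beside 19.4% and 17.0% of all genes. The part of mast cells in the genes that rose was not tested.

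The genes nearest to the median centred profile of the TCA cycle enzymes were Nudt4, Dbt and Maged1, at distances of 0.03, 0.04 and 0.06 log2 units over the 6 libraries. None of the 3 was called in edgeR with TMM scaling in any comparison. With upper-quartile scaling, which moved the median of all genes to -0.10, Maged1 was called lower with LPS (-0.20, adjusted p = 0.0337, range over all alternatives 0.0337 to 1). Nudt4 was at 57.1 to 63.8 CPM, Dbt at 30.9 to 34.4 CPM and Maged1 at 253 to 279.4 CPM. Dbt encodes the transacylase core of the branched-chain 2-oxoacid dehydrogenase complex, a relative of the 2-oxoglutarate dehydrogenase complex.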

How the data were processed

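The values the authors deposited are raw read counts, whole numbers in 1 table of 34751 RefSeq transcript rows for 6 libraries. TopHat2 2.0.13, HTSeq 0.5.4p3 and build mm10 are named in the submitters' processing notes. For the annotation version, the strand setting and reads shared by transcripts, nothing is stated in these notes. Groups came from the labels, and the deposited counts were summed per symbol.

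Low genes were removed by edgeR 4.0.16 (filterByExpr, at least 10 counts). After TMM scaling, the quasi-likelihood test was run in R 4.3.3, with the 3 groups in 1 model over all 6 libraries (3 residual degrees of freedom). Unless another tool or setting is named, an adjusted p is Benjamini-Hochberg over all 9389 genes tested in this edgeR fit. The threshold was 0.05 throughout. Under another tool or setting, including each left-out library, the adjustment was over the genes tested there, for example 14593 with no filter and 7574 with a mean of at least 5 CPM. SE was taken from the log2 fold change and the F statistic, as |log2 fold change|/√F, and 95% intervals use edgeR's total degrees of freedom. CPM use TMM-scaled library sizes, and levels per kb divide CPM by exon length. Profiles used log2 CPM with a prior count of 2 for genes of at least 5 CPM. No replicate pair agreed within sampling noise. The vehicle pair had the highest mean chi-square per gene, 43.7. That of the LPS pair was 6.14, and the SGA360+LPS pair had 4.12. The common biological coefficient of variation, edgeR's measure of spread between replicates, was 0.0951 in the fit of all 6 libraries. Fitted on only the compared groups, it was 0.054 in SGA360+LPS against LPS. Against vehicle it was 0.119 with LPS and 0.115 with SGA360 and LPS. The main fit thus used a larger common spread than the first of these comparisons showed alone, and a smaller one than the other 2. Counting intervals cover counting error only.

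The members, lists, motifs and alternatives were chosen with earlier results of these data known. Named are the 9 members, up to 4 called members of at least 1 CPM with the largest change from each pathway list, and the nearest profiles. Pdk3, Sdhb, Sdhd, Slc25a1, Tlr4, and genes named only as not called or not tested, were added after their values were seen. Some listed genes are not reported here. Positions in the table start 1 base early and are printed 1-based. Promoters are from RefSeq (GRCm38.p6) and overlaps from GENCODE M21. Alternatives were other scalings and filters, only the compared groups, a replicate block, a test against a 2-fold change, leaving out each library, limma-voom (limma 3.58.1) and DESeq2 1.42.0. The main fit was also run on simulated counts given the same spread for every gene and group, and no result here rests on that run.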

Additional observations from a re-analysis of the deposited data

How the results depend on the processing

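The rise of Irg1 kept its direction and its call under all 17 alternatives, at 8.72 to 8.88 with LPS and 8.55 to 8.68 with SGA360 and LPS, and its difference with SGA360 stayed between -0.22 and -0.13 and uncalled. Cs and Idh2 kept their LPS calls except in the test against a 2-fold change. Genes called with LPS numbered 604 in that test and 2091 to 5494 when 1 library was left out (3998 without vehicle replicate 1). With SGA360 and LPS against vehicle they numbered 539 and 1831 to 5315. Genes called in SGA360+LPS against LPS numbered 12 with only the compared groups, 17 with no filter, 0 against a 2-fold change (276 had an unadjusted p under 0.05 in the edgeR fit), 11 in DESeq2, and 0 to 16 when 1 library was left out.

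TCA cycle enzymes called higher with LPS numbered 2 with no filter, 0 against a 2-fold change and 1 to 2 when 1 library was left out. Those called lower numbered 0 against a 2-fold change and 1 to 2. With SGA360 and LPS against vehicle, enzymes called higher numbered 0 under upper-quartile scaling, 2 with no filter, 2 in DESeq2, 0 against a 2-fold change and 0 to 2 when 1 library was left out, and enzymes called lower numbered 0 against a 2-fold change and 1 to 2. Idh3a was called with no filter (0.36, adjusted p = 0.00889). Upper-quartile scaling moved the median of all genes to -0.10 with LPS. Under it Fh1 was called (-0.32, adjusted p = 0.0173), as it was with a mean of at least 5 CPM (-0.25, adjusted p = 0.0412), and Cs lost its call with SGA360 and LPS (0.16, adjusted p = 0.0923). The sign of Sdha with SGA360 turned under upper-quartile scaling (0.0061), with no filter (0.0004), with a mean of at least 5 CPM (0.001) and when libraries were left out (-0.0544 to 0.0571). That of Idh3a with SGA360 and LPS against vehicle ran from -0.0339 without vehicle replicate 1 to 0.46 without vehicle replicate 2 when libraries were left out. The sign of the LPS difference of Slc25a1, near 0, turned under upper-quartile scaling (-0.0745) and with a mean of at least 5 CPM (-0.0051). Beyond the settings that drop libraries, test fewer or more genes or demand a 2-fold change, the cause was not tested.

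Whether replicate numbers mark paired libraries could not be settled with 2 numbers only. Deviations of same-numbered libraries correlated at -0.0066 for vehicle and LPS, 0.0145 for vehicle and SGA360+LPS and 0.163 for LPS and SGA360+LPS. In each group, replicate 1 had the lower total count and the larger Rn45s share. The shares were 4.92% and 0.684% in vehicle, 0.682% and 0.22% with LPS, and 0.604% and 0.294% with SGA360 and LPS. With the replicate block 3434 genes were called with LPS, 5 between SGA360+LPS and LPS, and 3136 between SGA360+LPS and vehicle, where 2 enzymes were higher, with Mdh2 added (0.19, adjusted p = 0.0371). Under the block Pdp2 lost its call with LPS (-0.56, adjusted p = 0.0552) and Il1b its call in SGA360+LPS against LPS (-1.04, adjusted p = 0.0517), and no other gene call recomputed under it changed. Depth limits the precision of Slc13a3 in vehicle, with 5 and 10 counts.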
